A study of Mus musculus with 7 samples.

Results

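The peroxiredoxins and the thioredoxin system were examined in pancreatic islet RNA of NOD_Idd22 and NOD-Rag1 mice, and none of the genes passed the test for a difference between the strains. The members were a fixed list of 9 genes, Prdx1 to Prdx6 for the peroxiredoxins, Txn1 and Txn2 for the thioredoxins, and Txnip for the thioredoxin-interacting protein, taken by gene symbol from the array annotation. All 9 of the 9 were found among the 25794 symbols of the annotation, with 10 of the 34351 annotated probe sets. Each gene was read from its brightest probe set, and dim probe sets were kept.

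NOD_Idd22 is the NOD.ALRc8 congenic strain, which carries an ALR segment of chromosome 8 between D8Mit293 and D8Mit137 on the NOD background and has intact Rag1. It was represented by 4 pools of islets. NOD-Rag1 mice are NOD mice with a knockout of Rag1, which leaves them without mature T and B cells, and they stood in for NOD mice because they develop no insulitis. They were represented by 3 pools. Each pool held islets of 2 mice aged 10 to 12 weeks, with 200 to 250 islets per pool according to the methods, and RNA levels come from Affymetrix Mouse Gene 2.0 ST arrays. The strains therefore differ at least in the chromosome 8 segment, at the Rag1 locus and in the presence of lymphocytes, and these cannot be told apart. By the strain name in the methods, the knockout was brought in from another strain, so sequence linked to Rag1 may differ too. The labels do not give the sex of the mice, and sex-linked genes, given below, read as male in NOD-Rag1 replicate 1 alone.

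Peroxiredoxins are thiol peroxidases that reduce hydrogen peroxide, and thioredoxins give them back their reducing power, drawing electrons from NADPH through the thioredoxin reductases. The system is compartmented, with members in the cytosol, the mitochondria and the endoplasmic reticulum, and beta cells, which make little catalase and glutathione peroxidase, are known to lean on it when they clear peroxide. TXNIP binds thioredoxin and blocks its active site, and its gene is among the most glucose-responsive in islets.

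All values are log2 expression values made by RMA, so a difference of 1 is a doubling. Differences are NOD_Idd22 minus NOD-Rag1. Because pieces of different genes are read by different probes, levels are compared between pools for each gene and not between genes. Less RNA of a gene in a pool of islets and fewer cells that express it cannot be told apart in these data.

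The sequence before the start is shown for Txnip, the member whose level varied most between pools, and for Prdx1, because each holds a known kind of response element. RefSeq windows (GRCm38.p6) were at hand for 8 of the 9 genes, and Prdx6 was not matched. The Txnip stretch is the 250 bases before the start, chr3:96557707-96557956 on the plus strand, and capitals mark a pair of half-sites of the carbohydrate response element, the site bound by the glucose-sensing factors MLXIPL (ChREBP) and MLXIP (MondoA). The Prdx1 stretch is the same length, chr4:116685349-116685598 on the plus strand, and capitals mark a match to the core of the antioxidant response element, the site bound by NRF2.
Txnip: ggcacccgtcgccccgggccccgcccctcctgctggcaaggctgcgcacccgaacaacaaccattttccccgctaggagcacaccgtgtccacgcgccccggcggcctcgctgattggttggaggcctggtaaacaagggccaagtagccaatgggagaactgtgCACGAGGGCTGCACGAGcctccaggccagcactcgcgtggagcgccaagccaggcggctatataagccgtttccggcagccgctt
Prdx1: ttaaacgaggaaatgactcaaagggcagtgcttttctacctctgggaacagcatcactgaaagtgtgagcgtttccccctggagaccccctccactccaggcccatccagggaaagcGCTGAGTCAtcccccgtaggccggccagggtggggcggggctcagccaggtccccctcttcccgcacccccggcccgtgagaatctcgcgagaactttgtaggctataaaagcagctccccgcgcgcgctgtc
The antioxidant core was searched as TGACNNNGC on both strands of the 300-base windows, 250 bases before to 50 after the start, and was present in 12.4% of 32851 windows. Among the members it was found in Prdx1 alone, with its first base at position -133 from the start. The E-box CACGTG was present in 7.15% of windows and, among the members, in Prdx4 alone, at position -52. The pair of half-sites was searched as CACGAG, any 5 bases and CACGAG again after the Txnip window had been read, so its match there was set in advance. This exact spelling was present in the Txnip window only, 1 of 32851, at position -85. The count does not show how common the element is in other spellings, and the Arrdc4 window had 0 matches. A match describes letters in a window and is not evidence that a factor bound there.

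With an adjusted p under 0.05 as the criterion, 0 of the 9 genes were called by limma, against 0.157% of all tested probe sets (0.146% higher and 0.0116% lower in NOD_Idd22). At the threshold of the methods, a log2 fold change over 0.5 in size with an unadjusted p of 0.05 or less, 0 of 9 passed, where 5.59% of all probe sets did. An unadjusted p of 0.05 or less alone was reached by 0 of 9, where 9.48% of probe sets reached it, and in 0 of 9 were the pools of the strains separated without overlap, where 7.17% of probe sets were. Differences were negative for 6 of 9 genes, where 45.0% of all probe sets had a negative difference. Their median was -0.07, while the median over all tested probe sets was 0.02. With each array centred on its own median, these medians were -0.19 and -0.10. An exact two-sided permutation test over the 35 splits of the pools can reach no p below 0.0286.

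**Figure D1:**
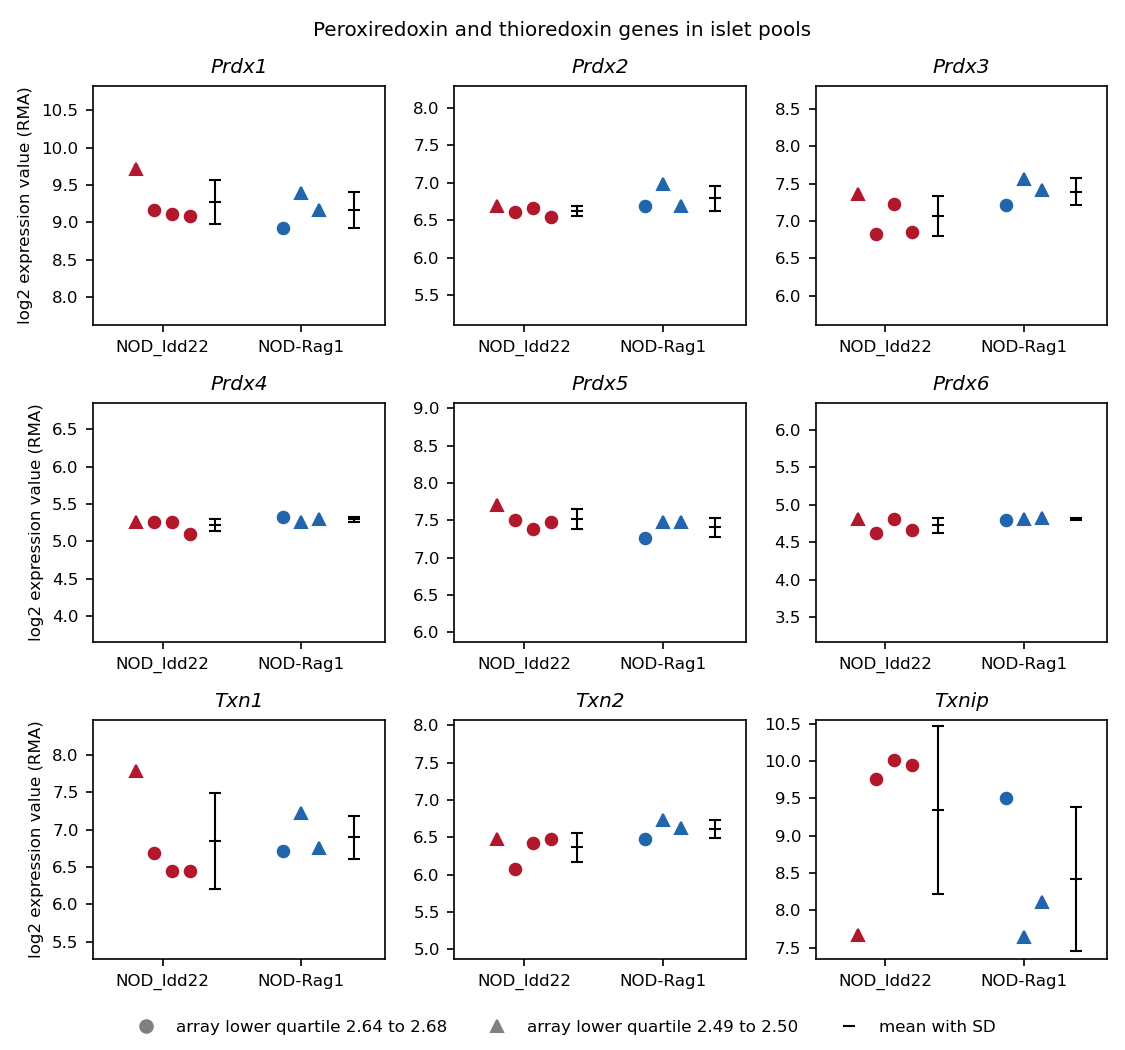
Log2 expression value (RMA) of each gene in the 4 NOD_Idd22 pools (red, left) and the 3 NOD-Rag1 pools (blue, right), with the mean and SD beside each group and the same height of axis in every panel. Circles are arrays with a lower quartile of 2.64 to 2.68 and triangles those with 2.49 to 2.50, and Txnip is high in all 4 circles and low in all 3 triangles.

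Among the cytosolic peroxiredoxins, Prdx1 had values of 9.72, 9.17, 9.12 and 9.09 in NOD_Idd22 replicates 1 to 4, and 8.92, 9.40 and 9.17 in NOD-Rag1 replicates 1 to 3. PRDX1 is a typical 2-Cys peroxidase and an NRF2 target. The strains overlapped, and NOD_Idd22 replicate 1 was above every other pool. The means were 9.27 ± 0.30 (SD, n = 4) and 9.16 ± 0.24 (SD, n = 3), and the difference on the log2 scale was 0.11 (SE 0.19, adjusted p = 0.857 from limma, exact permutation p = 0.714). The 95% interval of the fold ran from 0.795 to 1.47. The sign was negative, at -0.01, with arrays centred on their medians.

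The brightest probe set with the symbol Prdx1 does not lie at the gene. Its position is chr8:129252951-129253859, where RefSeq places Gm21399, a pseudogene with the synonym Prxi-ps2 (chr8:129252925-129254339), whereas Prdx1 itself is on chromosome 4. The annotation gives this probe set the Prdx1 transcript NM_011034, so its values may hold RNA of the gene, of the copy or of both, and they cannot be told apart here. The position is beyond the distal marker of the congenic segment. The probe set at the gene, chr4:116685544-116700822, was dimmer, with values of 3.69, 3.53, 3.68 and 3.36 in NOD_Idd22 and 3.60, 4.15 and 4.02 in NOD-Rag1. Its difference had the opposite sign, -0.35 (SE 0.16, 95% interval -0.72 to 0.01, adjusted p = 0.534 from limma), so the probe sets disagree and no direction is given for Prdx1. RefSeq also names pseudogenes for Prdx2 (2), and for Prdx1, Prdx6 and Txn1 (1 each), and reads of these genes may be shared with such copies.

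Prdx2, the other typical 2-Cys peroxidase of the cytosol, is the member whose gene lies between the markers of the congenic segment (chr8:84969587-84974834). The methods place the markers on an older mouse build, and their positions were not converted to the GRCm38 coordinates used here. The values of Prdx2 were 6.69, 6.61, 6.66 and 6.54 in NOD_Idd22 and 6.69, 6.99 and 6.69 in NOD-Rag1. Of the NOD_Idd22 pools, 3 were below every NOD-Rag1 pool, and the fourth overlapped them. The means were 6.62 ± 0.07 (SD, n = 4) and 6.79 ± 0.17 (SD, n = 3), and the difference on the log2 scale was -0.16 (SE 0.10, adjusted p = 0.632 from limma, exact permutation p = 0.0857). The 95% interval of the fold was 0.753 to 1.06.

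Prdx3 and its electron donor Txn2, both of mitochondria, had the largest negative differences of the 9 genes as read from their brightest probe sets. Prdx5, whose protein is also found in mitochondria, had a positive difference of 0.11. Prdx3 read 7.36, 6.82, 7.23 and 6.85 in NOD_Idd22 and 7.21, 7.56 and 7.41 in NOD-Rag1. A pair of NOD_Idd22 pools, replicates 2 and 4, was below every NOD-Rag1 pool. The log2 fold change was -0.33 (SE 0.17, 95% interval -0.72 to 0.06, adjusted p = 0.575 from limma, exact permutation p = 0.171). Txn2 read 6.48, 6.07, 6.43 and 6.48 in NOD_Idd22 and 6.48, 6.73 and 6.62 in NOD-Rag1. TXN2 reduces PRDX3 and PRDX5 in the matrix. Its highest NOD_Idd22 pools were level with the lowest NOD-Rag1 pool, and replicate 2 was far below. The log2 fold change was -0.24 (SE 0.13, 95% interval -0.55 to 0.06, adjusted p = 0.584 from limma, exact permutation p = 0.171).

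The remaining peroxiredoxins varied little. Prdx4, the peroxiredoxin of the endoplasmic reticulum that passes oxidizing power to protein disulfide isomerases, read 5.26, 5.26, 5.26 and 5.10 in NOD_Idd22 and 5.32, 5.26 and 5.30 in NOD-Rag1. The same value stood in 4 of its 7 pools, as it did in 2 or more pools for 52.5% of all probe sets. Its log2 fold change was -0.07 (SE 0.08, adjusted p = 0.784 from limma), with an interval of the fold from 0.835 to 1.09. Prdx5, an atypical 2-Cys enzyme of mitochondria, peroxisomes and cytosol, read 7.70, 7.51, 7.39 and 7.48 in NOD_Idd22 and 7.26, 7.48 and 7.48 in NOD-Rag1. Its highest value was in NOD_Idd22 replicate 1 and its lowest in NOD-Rag1 replicate 1, with overlap between. The log2 fold change was 0.11 (SE 0.11, adjusted p = 0.749 from limma), with an interval of the fold from 0.907 to 1.28, and it was -0.01 with arrays centred on their medians. Prdx6, the 1-Cys peroxiredoxin, which is reduced by glutathione and also has phospholipase activity, read 4.81, 4.62, 4.81 and 4.66 in NOD_Idd22 and 4.80, 4.81 and 4.83 in NOD-Rag1. Its log2 fold change was -0.09 (SE 0.09, adjusted p = 0.749 from limma), and the interval of the fold was 0.819 to 1.08. These intervals bound the differences of Prdx4, Prdx5 and Prdx6 but do not show that the strains were equal.

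Txn1, the cytosolic thioredoxin, read 7.79, 6.69, 6.45 and 6.45 in NOD_Idd22 and 6.71, 7.23 and 6.76 in NOD-Rag1. NOD_Idd22 replicate 1 had the highest value of all pools, and the other 3 NOD_Idd22 pools were below every NOD-Rag1 pool. The means were 6.85 ± 0.64 (SD, n = 4) and 6.90 ± 0.29 (SD, n = 3), and the difference on the log2 scale was -0.05 (SE 0.34, adjusted p = 0.970 from limma, exact permutation p = 0.914). The interval of the fold, 0.551 to 1.68, was wide.

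Txnip had the largest difference and the largest spread of the 9 genes. Its values were 7.67, 9.76, 10.01 and 9.95 in NOD_Idd22 and 9.50, 7.65 and 8.11 in NOD-Rag1. Of the NOD_Idd22 pools, 3 were above every NOD-Rag1 pool, while replicate 1 was at the level of NOD-Rag1 replicates 2 and 3. The means were 9.34 ± 1.12 (SD, n = 4) and 8.42 ± 0.96 (SD, n = 3), and the difference on the log2 scale was 0.92 (SE 0.68), or 1.90-fold, with adjusted p = 0.678 from limma and exact permutation p = 0.229. The interval of the fold ran from 0.628 to 5.72. Without NOD_Idd22 replicate 1 the log2 fold change was 1.48 (adjusted p = 0.216 from limma), which passes the threshold of the methods, as 9.6% of all probe sets did in that fit. That pool is the only NOD_Idd22 pool of the low array set, as described below. Over the pools left out in turn the log2 fold change was 0.54 to 1.48. Without replicate 1 of both strains it was 2.02 (adjusted p = 0.0598 from limma), where 12.9% of all probe sets passed that threshold and 0.00291% had an adjusted p under 0.05. The NOD_Idd22 pools left in that fit are all of the high array set and the NOD-Rag1 pools all of the low set. Strain and array set therefore cannot be told apart there. The probe set, chr3:96557957-96561883, lies within the position of the long noncoding RNA Gm15441.

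The spread within strains was 1.06 for Txnip and 0.53 for Txn1 as a pooled SD, at percentiles 99.5 and 95.2 of all tested probe sets, whose median was 0.20. The other 7 genes had pooled SDs of 0.06 to 0.28. Thus the variation between pools of a strain was far larger for the thioredoxin inhibitor than for any enzyme of the system, as a description of these 7 pools.

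**Figure D2:**
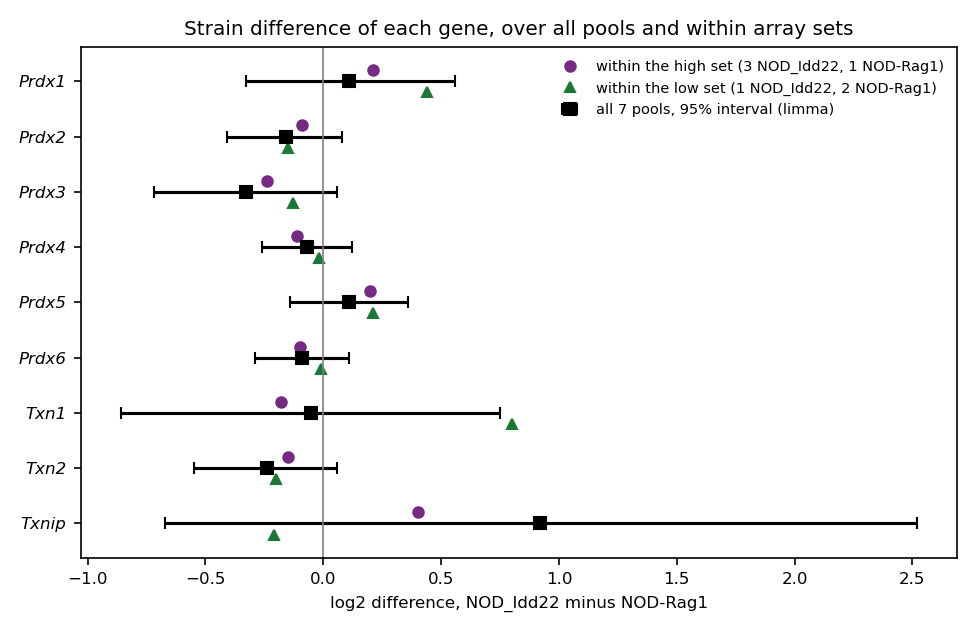
Log2 difference, NOD_Idd22 minus NOD-Rag1, of each gene over all 7 pools with its 95% interval from limma (squares), and within the arrays with a high lower quartile (circles) and within those with a low one (triangles), both as values with no interval. All 9 intervals include 0, and for Txn1 and Txnip the differences within the sets have opposite signs.

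By their lower quartile over all probe sets, the arrays formed 2 sets. The quartile was 2.64 to 2.68 in NOD_Idd22 replicates 2, 3 and 4 and NOD-Rag1 replicate 1, called the high set here, and 2.49 to 2.50 in NOD_Idd22 replicate 1 and NOD-Rag1 replicates 2 and 3, the low set. Txnip was 9.50 to 10.01 in the high set and 7.65 to 8.11 in the low set. Txn1 was 6.45 to 6.71 in the high set and 6.76 to 7.79 in the low set, so the inhibitor and its target lay on opposite sides. Prdx3 was 6.82 to 7.23 in the high set and 7.36 to 7.56 in the low set. In all, the sets did not overlap for 3 of the 9 genes, where 18.4% of all probe sets did not overlap, and the probe set at the Prdx1 gene was also separated, at 3.36 to 3.68 and 3.69 to 4.15.

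Within the sets, the strain difference of Txnip was 0.40 in the high set and -0.21 in the low set. That of Txn1 was -0.18 in the high set and 0.80 in the low set. That of Prdx3 was -0.24 in the high set and -0.13 in the low set, and that of the Prdx1 probe set at the pseudogene was 0.21 in the high set and 0.44 in the low set. The probe set at the Prdx1 gene went the other way, with -0.07 in the high set and -0.39 in the low set. These are values without a test. With the set as a block, the log2 fold changes were 0.11 for Txnip (adjusted p = 0.905 from limma), 0.28 for Txn1 (adjusted p = 0.799 from limma), 0.31 for the Prdx1 probe set at the pseudogene (adjusted p = 0.440 from limma), -0.22 for that at the gene (adjusted p = 0.694 from limma) and 0.20 for Prdx5 (adjusted p = 0.545 from limma). The high set has only NOD-Rag1 replicate 1 for that strain, and this pool had an Xist value of 2.56, where the other pools had 9.69 to 10.28, and a Ddx3y value of 6.25, where the others had 1.99 to 2.08. Such values are those of males, so in the high set strain and sex cannot be told apart.

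Of 8 beta cell genes, 4 were split by array set in the direction of Txnip, where 18.4% of all probe sets were split in either direction. The mean of the 8 (Ins1, Ins2, Iapp, Mafa, Slc2a2, Nkx6-1, Pdx1 and G6pc2) was 9.43, 10.21, 10.37 and 10.26 in NOD_Idd22 and 10.07, 9.63 and 9.97 in NOD-Rag1, that is 10.07 to 10.37 in the high set and 9.43 to 9.97 in the low set. The 4 without overlap, all higher in the high set, were Ins1, Ins2, Slc2a2 and Pdx1. Mafa, Nkx6-1 and G6pc2 overlapped, and Iapp averaged 11.82 in the high set and 11.86 in the low set. Mlxipl, which encodes the glucose-sensing factor ChREBP, also did not overlap, with 7.86, 8.40, 9.12 and 8.91 in NOD_Idd22 and 8.77, 7.62 and 8.38 in NOD-Rag1. The mean of 4 duct genes was 4.90 to 5.19 in the high set and 5.37 to 6.37 in the low set, but Spp1 was the only 1 of the 4 without overlap, and without it the means overlapped, at 3.87 to 4.04 in the high set and 3.93 to 5.10 in the low set. NOD_Idd22 replicate 1, which had the highest value of Txn1 and of the Prdx1 probe set at the pseudogene, also had the highest means of duct genes, 6.37, and of the 7 macrophage and dendritic cell genes, 7.86. The part of the cell makeup or of the array set in the levels of Txnip, Txn1 and Prdx1 was not tested.

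**Figure D3:**
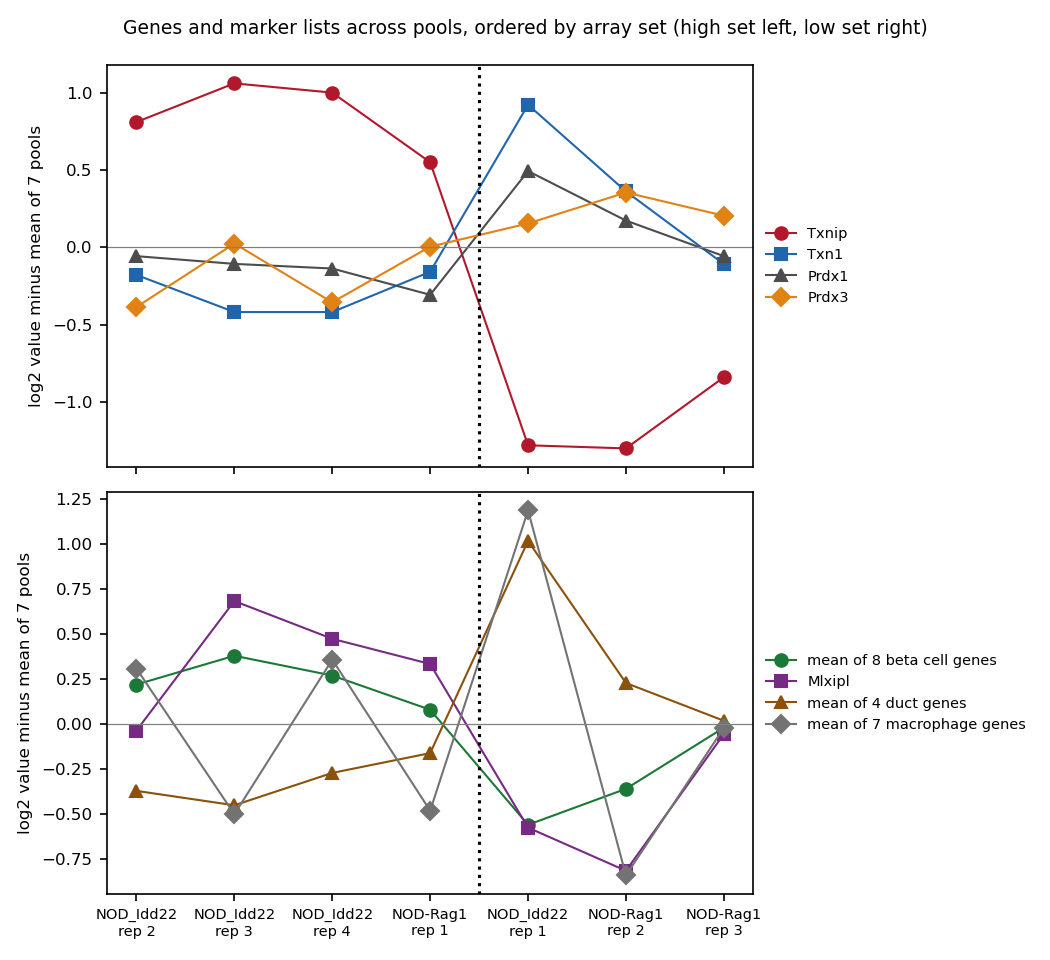
Log2 value of each gene (upper panel) or mean log2 value of each marker list (lower panel) minus its own mean over the 7 pools, with pools ordered by array set, the high set left of the dotted line and the low set right of it. Txnip, Mlxipl and the mean of the beta cell genes (4 of 8 without overlap) are higher on the left, and Txn1, Prdx3 and the mean of the duct genes (1 of 4 without overlap, Spp1) are higher on the right. Prdx1 is shown by the probe set at the pseudogene.

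Genes with the most similar pattern over the 7 pools were found among 25794 probe sets by the root mean square difference of log2 values centred on their mean. For Txnip, whose own range was 2.35, they were Gm11175 (0.316), Olfr584 (0.322) and the 5S ribosomal RNA gene n-R5s50 (0.333). Gm11175 had 6.20, 7.38, 7.77 and 7.91 in NOD_Idd22 and 7.94, 5.90 and 6.07 in NOD-Rag1. Arrdc4, a paralog of Txnip and a known target of the same glucose-sensing factors, had 6.43, 6.43, 6.43 and 6.66 in NOD_Idd22 and 6.42, 6.43 and 6.44 in NOD-Rag1. Its root mean square difference from Txnip was 0.977. The values of Arrdc4 hardly varied, with a range of 0.24 and ties between pools, so they cannot show whether the pattern is shared. For Txn1, with a range of 1.34, the most similar were Lif (0.079), Cnih4 (0.123) and Il13ra1 (0.123). Lif had 5.02, 4.03, 3.83 and 3.93 in NOD_Idd22 and 4.07, 4.68 and 4.07 in NOD-Rag1. For Prdx1, with a range of 0.80, they included Nek6 (0.045) and Tpm1 (0.048).

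Since Prdx2 lies in the congenic segment, the 29 genes within 0.25 Mb on either side of it were described as well. Differences were positive for 15 and negative for 14, with a median of 0.00 and a range of -0.66 to 1.09. By the adjusted p, 0 of the 29 were called. Rnaseh2a, a subunit of ribonuclease H2 whose probe set overlaps that of Prdx2, differed by -0.06 (adjusted p = 0.833 from limma). Junb, an AP-1 subunit that starts 2075 bases after Prdx2 ends, had 7.11, 7.23, 8.16 and 8.30 in NOD_Idd22 and 6.94, 6.49 and 6.39 in NOD-Rag1, without overlap (log2 fold change 1.09, adjusted p = 0.390 from limma). Dhps, the deoxyhypusine synthase, had the smallest p of the neighbours, with a log2 fold change of -0.66 (SE 0.18, adjusted p = 0.329 from limma).

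**Figure D4:**
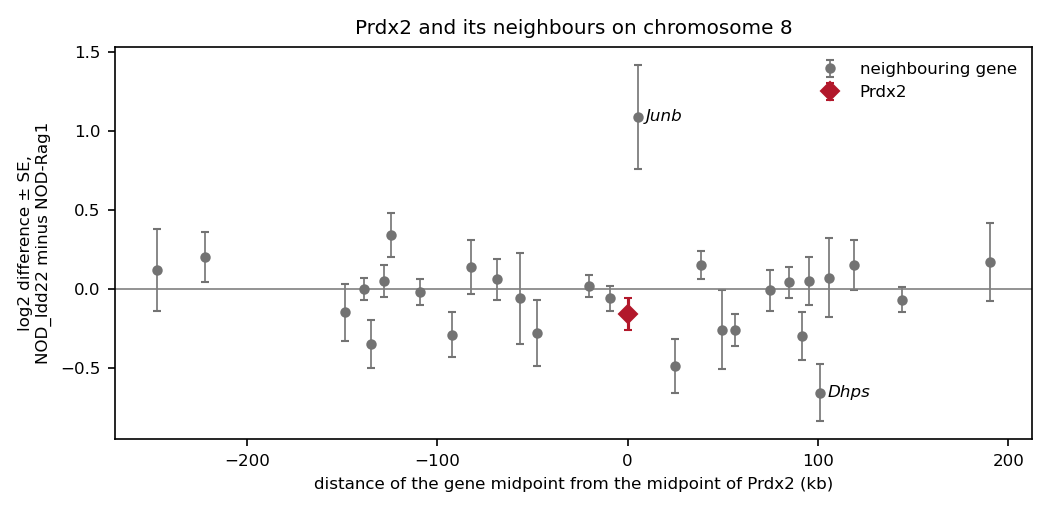
Log2 difference with its SE, NOD_Idd22 minus NOD-Rag1, of Prdx2 (red) and of the 29 genes within 0.25 Mb, by distance in kb between gene midpoints. Prdx2 lies at -0.16, within the range of its neighbours, while Junb and Dhps lie at 1.09 and -0.66.

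The other genes of the pathway were read from lists of 57 genes, all found on the array. By the adjusted p, 0 of 57 were called in either direction, and differences were positive for 23 and negative for 34, with a median of -0.07. The pools of the strains were separated without overlap for 9 of the 57 genes, where 7.17% of all probe sets were. At the threshold of the methods 0 were higher in NOD_Idd22 and 6 were lower, where 3.81% of all probe sets were higher and 1.78% lower. The 6 were Sesn2, Txnrd3, Me1, Glrx, Glrx5 and Ero1l, and their call depended on the fit: with the array sets as a block Ero1l alone passed, it alone passed without NOD_Idd22 replicate 2 and without NOD-Rag1 replicate 2 or 3, and it passed with Sesn2 alone without NOD_Idd22 replicate 4. Of all probe sets, 4.68% passed with the block and 3.68% to 4.19% in these fits with a pool left out. With the mean of all probe sets of a gene, 5 of the 57 passed, without Glrx5, where 6.08% of all genes did.

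Among the reductases and sulfiredoxin, 5 of 7 differences were negative and 2 passed the threshold. Sesn2, a stress-induced sestrin, had 8.50, 7.21, 7.53 and 6.27 in NOD_Idd22 and 8.58, 8.67 and 8.80 in NOD-Rag1. Every NOD_Idd22 pool was lower, with a wide spread in that strain, and the log2 fold change was -1.31 (SE 0.46, adjusted p = 0.465 from limma). Txnrd1, the cytosolic reductase that serves TXN1, had 9.17, 8.78, 8.80 and 8.86 in NOD_Idd22 and 9.02, 9.30 and 9.11 in NOD-Rag1 (log2 fold change -0.25, adjusted p = 0.577 from limma). Txnrd2, its mitochondrial counterpart, differed by 0.01 and Txnrd3, the reductase with a glutaredoxin domain, by -0.54 (adjusted p = 0.519 from limma). Srxn1, which restores overoxidized peroxiredoxins, differed by -0.19 (adjusted p = 0.695 from limma).

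Of the 8 genes of NADPH supply, 6 had negative differences. Idh2, the mitochondrial isocitrate dehydrogenase, had 9.20, 9.27, 9.34 and 9.02 in NOD_Idd22 and 9.50, 9.64 and 9.64 in NOD-Rag1. The strains did not overlap, and the log2 fold change of -0.38 (SE 0.10, adjusted p = 0.316 from limma) had the smallest p of the list and fell short of the threshold in size. Me1, the cytosolic malic enzyme, differed by -0.80 (SE 0.32, adjusted p = 0.504 from limma). Nnt, the transhydrogenase of the inner mitochondrial membrane, differed by 0.06 (adjusted p = 0.884 from limma).

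Among 4 glutaredoxins, which act on glutathione-bound thiols, Glrx and Glrx5 differed by -0.66 (SE 0.25, adjusted p = 0.490 from limma) and -0.69 (SE 0.24, adjusted p = 0.465 from limma). Glrx5, a mitochondrial protein of iron-sulfur cluster transfer, had 7.97, 7.64, 7.97 and 7.05 in NOD_Idd22 and 8.09, 8.43 and 8.53 in NOD-Rag1, without overlap. These are values of its brightest probe set. With the mean of all its probe sets the log2 fold change was -0.32 and did not pass the threshold. Among 16 thioredoxin-fold proteins, 12 had negative differences and 0 passed the threshold. Tmx3, a membrane-bound disulfide isomerase, differed by -0.43 and Txndc5, a soluble one, by 0.30. Both were without overlap between the strains, as were 4 of the 16 in all. Among 8 substrates and the bound kinase, 0 passed. Rrm2b and Rrm2, small subunits of ribonucleotide reductase, differed by -0.36 and 0.38, and Map3k5, the kinase ASK1 that thioredoxin holds inactive, by 0.08.

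Among 7 alpha-arrestins and glucose-sensing regulators, 0 passed. Mlxipl differed by 0.32 (SE 0.37, adjusted p = 0.789 from limma), Mlx, the partner of MLXIPL and MLXIP, by -0.22, Arrdc1 by 0.21 and Arrdc4 by 0.06. Of 7 genes of oxidative folding in the endoplasmic reticulum, 6 had positive differences, while Ero1l was lower. Ero1l, which encodes the disulfide oxidase ERO1A and makes hydrogen peroxide as it works, had 9.94, 9.11, 9.18 and 9.20 in NOD_Idd22 and 10.26, 10.47 and 10.01 in NOD-Rag1. The strains did not overlap, and the log2 fold change was -0.89 (SE 0.23, adjusted p = 0.288 from limma, exact permutation p = 0.0571). It was -0.63 with the mean of all probe sets of the gene. Without NOD_Idd22 replicate 1 the log2 fold change of the brightest probe set was -1.08 (adjusted p = 0.0451 from limma), the only partner gene and setting with an adjusted p under 0.05. In that fit 160 of 34351 probe sets had an adjusted p under 0.05. The NOD_Idd22 pools left in it are all of the high array set and 2 of the 3 NOD-Rag1 pools are of the low set, so strain and set are hard to tell apart. The paralog of Ero1l, Ero1lb, which is abundant in beta cells, had 10.21, 11.45, 11.53 and 11.56 in NOD_Idd22 and 10.99, 10.65 and 10.97 in NOD-Rag1. It was lowest in NOD_Idd22 replicate 1, did not overlap between the array sets, and differed by 0.32 between the strains (adjusted p = 0.767 from limma). Pdia4, a disulfide isomerase, differed by 0.19 (adjusted p = 0.556 from limma).

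**Figure D5:**
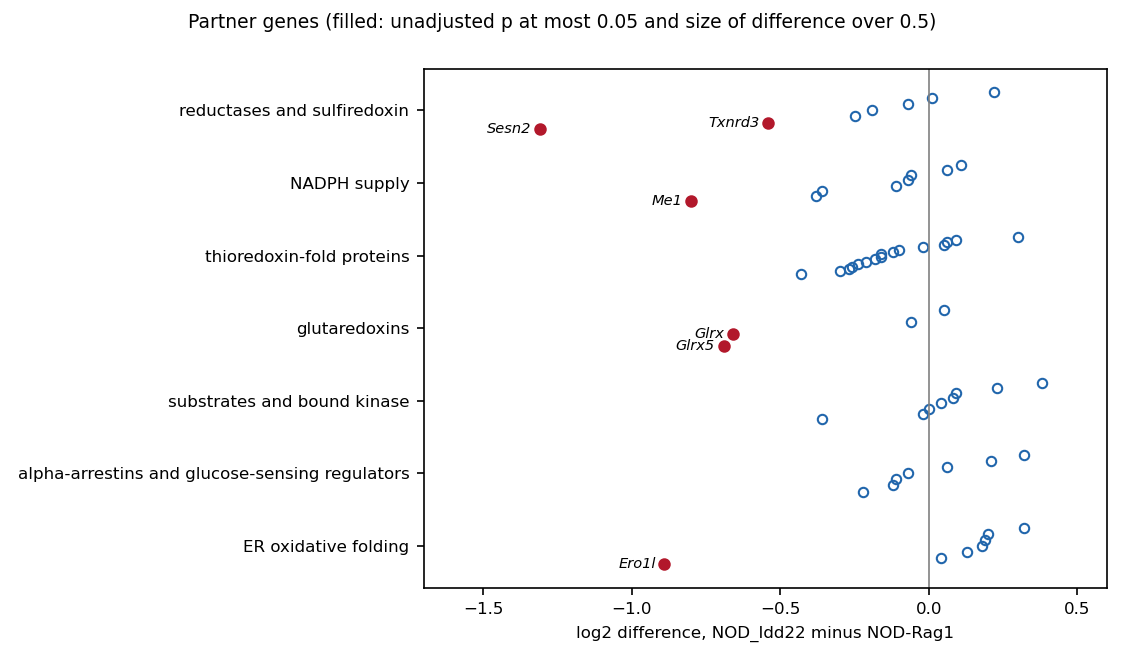
Log2 difference, NOD_Idd22 minus NOD-Rag1, of the 57 partner genes by list, 1 circle a gene, with filled circles for the 6 genes past the threshold of the methods. All 6 lie left of 0, from -0.54 to -1.31.

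The islet label was borne out by endocrine genes, with Gcg at 12.78 to 12.87 in NOD_Idd22 and 12.66 to 12.95 in NOD-Rag1. All 5 alpha cell genes had negative differences, from -0.03 for Gcg to -0.62 for Ttr, which alone passed the threshold of the methods. Of the 8 beta cell genes, 6 had positive differences and 0 passed. Genes of acinar cells, lymphocytes and endothelium differed more. Means of 12 acinar genes were 7.95 to 10.01 in NOD_Idd22 and 4.78 to 7.51 in NOD-Rag1, and 10 of the 12 passed the threshold as higher. Means of 7 T cell genes were 5.75 to 7.26 in NOD_Idd22 and 3.84 to 4.53 in NOD-Rag1, and those of 6 B cell genes were 6.41 to 8.13 in NOD_Idd22 and 3.68 to 4.05 in NOD-Rag1. Means of 5 endothelial genes were 6.92 to 7.89 in NOD_Idd22 and 5.27 to 6.45 in NOD-Rag1. The strains overlapped in none of the acinar, T cell, B cell and endothelial lists. Means of 7 macrophage and dendritic cell genes did overlap, at 6.17 to 7.86 in NOD_Idd22 and 5.83 to 6.65 in NOD-Rag1. Of these 7 genes, 6 had positive differences and 4 passed the threshold as higher, where 3.81% of all probe sets did. Of 4 fibroblast and stellate cell genes 2 passed as higher, as did 2 of 3 red cell genes, while 0 of 4 duct genes passed. The part of these cells in the differences of the peroxiredoxin and thioredoxin genes was not tested.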

How the data were processed

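RNA of 7 islet pools was hybridized to Affymetrix Mouse Gene 2.0 ST arrays. The deposited values are log2 expression values, which the authors made with RMA (version not given in the sources used here): background correction, quantile normalization and summary of probes by probe set. The deposited table of the comparison gave symbols and GRCm38 positions. Its log2 fold changes and p-values, the authors' own, were not used. The paper reports more transcripts past its threshold than the 1920 of 34351 probe sets that passed here, and the reason was not tested. The 34351 annotated probe sets were fitted with limma 3.58.1 in R 4.3.3 (lmFit, eBayes, no block), adjusted by the Benjamini-Hochberg method over all of them, and 121 without annotation were left out. Single genes were also compared by exact two-sided permutation. The fit was tested on simulated data. Intervals are 95% intervals from limma. Alternatives were quantile normalization, median centring, brighter probe sets, other variance models, array weights, the methods' t-test and its unequal-variance form, replicate and array-set blocks, left-out pools and the mean of probe sets. Replicate numbers were not used to pair the pools in the main fit. Named were all members, 11 partner genes whatever their values and the 2 of smallest p per list. Members and lists were chosen with earlier results of these data known. Nothing states that pools of a strain were independent beyond their mice. The number of arrays limits precision. Figures were drawn with matplotlib 3.10.9 in Python 3.11.15. A further gene with a pattern like that of Prdx1 is not reported here.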

Additional observations from a re-analysis of the deposited data

Results flagged for a closer look

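Of 32 genes examined among the 4 NOD_Idd22 pools, 8 had a pool far from the other 3, by the gap relative to the range; chance gives such a pool in about 1 of 20 genes for independent values, but 16.6% of all tested probe sets had one here, and ties between pools enter it (Prdx4, Arrdc4). In NOD_Idd22 replicate 1, Txnip read 7.67 (others 9.76 to 10.01) and Ero1lb 10.21 (others 11.45 to 11.56), both low, while the Prdx1 probe set at the pseudogene read 9.72 (others 9.09 to 9.17) and Ero1l 9.94 (others 9.11 to 9.20), both high. In replicate 2, Txn2 read 6.07 (others 6.43 to 6.48) and Srxn1 7.11 (others 7.62 to 7.65). In replicate 4, Prdx4 read 5.10 (others 5.26) and Arrdc4 6.66 (others 6.43). Replicate 1 is the only NOD_Idd22 pool in the low array set, and its part in these values was not tested.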

How the results depend on the processing

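In every setting, 0 of the 9 genes had an adjusted p under 0.05, and their median difference was -0.19 to -0.03. At the threshold of the methods 1 gene (Txnip) passed with array weights (background 10.4%) and 0 to 1 with a pool left out (background 3.68% to 9.6%). Without replicate 1 of both strains 2 passed, Txnip and Prdx3 (background 12.9%). In that fit the NOD_Idd22 pools are all of the high array set and the NOD-Rag1 pools all of the low set, so strain and set cannot be told apart. Of the 57 partner genes 0 to 1 had an adjusted p under 0.05 with a pool left out, where 10 to 258 of all 34351 probe sets did. At the threshold of the methods 6 passed, where 5.59% of all probe sets did. The count, with the share of all probe sets, was 1 by the methods' t-test (3.63%) and 2 by its unequal-variance form (3.5%). It was 1 with the array set as a block (4.68%), 8 with median centring (6.74%), 9 without replicate 1 of both strains (12.9%), and 1 to 8 with a pool left out (3.68% to 9.6%). With the mean of all probe sets of a gene it was 5 (6.08% of all genes). The share of all probe sets thus also changed with the setting. Deviations of same-numbered pools correlated at -0.383, -0.143 and -0.108. Same-numbered pools lay in opposite array sets, so these values cannot show whether the numbers pair the pools. With the replicate block, 2 partner genes passed (background 3.34%) and Txn1 read 0.08. That fit called no gene by the adjusted p.

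Among the values of the 9 genes, 12 changed sign and 150 did not. Prdx1 read -0.01 with median centring, -0.12 over all its probe sets, -0.16 without replicate 1 of both strains and -0.04 to 0.23 with a pool left out (-0.04 without NOD_Idd22 replicate 1, -0.01 without NOD-Rag1 replicate 1). Prdx5 read -0.01 with median centring, -0.02 without replicate 1 of both strains and 0.04 to 0.15 with a pool left out. Txn1 read 0.28 with the array set as a block and -0.37 to 0.11 with a pool left out (0.08 without NOD_Idd22 replicate 3 or 4, 0.11 without NOD-Rag1 replicate 2), and -0.46 without replicate 1 of both strains. With median centring, Txnrd2 read -0.11, Map3k5 -0.04, Nnt -0.06 and Arrdc4 -0.06. With the array set as a block, Mlxipl read -0.04, Nnt -0.03 and Ero1lb -0.00. Txnrd2 also read -0.06 with quantile normalization and -0.01 with array weights, without NOD_Idd22 replicate 3 and without replicate 1 of both strains, and up to 0.03 and as low as -0.02 with a pool left out, the low value without NOD-Rag1 replicate 1. Without NOD-Rag1 replicate 2, Mlxipl read -0.00 and Nnt -0.04, and without replicate 1 of both strains 0.81 and 0.18. The cause of these changes was not tested. Few arrays and a dim probe set at the Prdx1 gene limit what could be detected.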
